A study of Mus musculus with 2 samples.

Results

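Of the 32285 genes in the deposited count matrices, 8 encode the transcription factors that are used here to follow the oligodendrocyte lineage: Olig1, Olig2, Nkx2-2, Nkx6-2, Myrf, Tcf7l2, Zfp488 and St18. They were selected by gene symbol and not by a rule on measured values, but with earlier results of these data known. All 8 had UMIs in both libraries, and all 8 passed the filter on low counts. The libraries are 2 single-cell preparations of dissociated striatum from untreated adult mice aged 8 to 10 weeks (8 to 9 weeks in the design text, 7 to 8 in the methods of the study), enriched for glia and labelled replicates 1 and 2 of 1 condition. The strain is given as C57/Bl6J in the sample label and as C57BL/6NTac in the protocol, the study used male mice, and actinomycin D, an inhibitor of transcription, was present during dissociation. Myelin was removed from the suspension with a debris removal kit and cells were passed through a fine filter, so the mix of cells need not be that of the intact tissue. Of the 4 mice used in all, the sources used here do not say how many went into each library, so the spread between the 2 libraries may be partly technical. No group was treated, and the comparisons are between stages of the lineage and between cell classes, each within both libraries.

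Oligodendrocytes, the myelinating glia, arise from oligodendrocyte precursor cells (OPCs) that persist in the adult brain. In the classical account, basic helix-loop-helix factors (Olig1, Olig2) specify the lineage and homeodomain factors (Nkx2-2, Nkx6-2) act on its timing and on the myelinating cell, while the membrane-bound factor Myrf, released by self-cleavage, switches on myelin genes. Tcf7l2, a partner of β-catenin in Wnt signalling, marks cells that have just left the precursor state, Zfp488 is a zinc finger co-repressor and partner of Olig2, and St18 is a zinc finger factor of the Myt1 family.

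The members lie on 6 chromosomes of the mouse genome (GRCm38, gene spans from GENCODE M21). Olig2 (chr16:91225457-91228677) and Olig1 (chr16:91269772-91271933) are neighbours on the plus strand, 41094 bases apart. Myrf (chr19:10208272-10240748, minus strand) and Tcf7l2 (chr19:55741820-55933654, plus strand) share a chromosome without being neighbours. Nkx2-2 lies at chr2:147177546-147194243 and Nkx6-2 at chr7:139579376-139582797, both on the minus strand. Zfp488 lies at chr14:33967070-33978764 on the minus strand and St18 at chr1:6487231-6860940 on the plus strand. Tcf7l2 is the only member that overlaps an annotated gene on its own strand, the intronic transcript Ppnr, so reads of these 2 genes can be confused. Antisense genes overlap Nkx2-2 (Nkx2-2os and 6430503K07Rik), Nkx6-2 (Inpp5a) and Olig1 (Gm15966).

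Tcf7l2, Zfp488 and Nkx2-2 were the members with their highest level in the same stage, the differentiating cells, and for this reason their promoters are shown. RefSeq sequences (GRCm38.p6) were matched for 5 of the 8 members. The Nkx2-2 start used by RefSeq lies inside the gene span given above. Each window holds 250 bases before and 20 bases after the annotated start, 5′ to 3′ on the strand of the gene, with capitals marking motif matches.
Tcf7l2 (chr19:55741560-55741829, plus strand): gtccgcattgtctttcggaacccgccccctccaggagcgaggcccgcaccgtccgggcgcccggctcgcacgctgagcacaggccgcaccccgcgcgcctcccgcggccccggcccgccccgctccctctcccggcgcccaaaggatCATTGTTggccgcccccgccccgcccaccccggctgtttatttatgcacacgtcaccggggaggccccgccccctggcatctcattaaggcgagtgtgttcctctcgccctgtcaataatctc
Zfp488 (chr14:33978745-33979014, minus strand): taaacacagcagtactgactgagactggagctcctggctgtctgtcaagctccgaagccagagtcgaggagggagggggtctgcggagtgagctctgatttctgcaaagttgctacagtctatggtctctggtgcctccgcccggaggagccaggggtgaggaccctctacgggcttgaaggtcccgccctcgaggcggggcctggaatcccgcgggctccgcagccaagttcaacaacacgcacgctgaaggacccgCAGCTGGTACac
Nkx2-2 (chr2:147186383-147186652, minus strand): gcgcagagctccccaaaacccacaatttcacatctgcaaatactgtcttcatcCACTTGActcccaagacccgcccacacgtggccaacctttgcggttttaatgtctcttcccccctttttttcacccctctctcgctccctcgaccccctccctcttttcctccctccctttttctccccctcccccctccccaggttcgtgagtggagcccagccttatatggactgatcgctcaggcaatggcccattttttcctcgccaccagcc

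The 10 words searched on both strands were the E-box CAGCTG of basic helix-loop-helix factors with its variant form CATATG, the TCF/LEF word ATCAAAG, the MYRF word CTGGCAC with its variant form CTGGTAC, the MYT1 family word AAAGTTT, the SOX word AACAAAG with its variant form AACAATG, the NK2 word TCAAGTG and the homeodomain word TAATTA. In the Zfp488 window an E-box (CAGCTG, starting at base 9 after the start) and a MYRF word (CTGGTAC, starting at base 12) overlap. CAGCTG was present in 14.2% and CTGGTAC in 1.99% of all 32851 promoter windows of this length. The Tcf7l2 window holds the SOX word AACAATG on the reverse strand at base -103, a word found in 3.53% of windows. A second annotated Tcf7l2 start has AACAAAG on the reverse strand at base -14, found in 5.40%. The Nkx2-2 window holds the NK2 word TCAAGTG on the reverse strand at base -197, which 2.83% of windows share. The Olig2 window has AACAATG on the reverse strand at base -68, and none of the 10 words occurs in the window of Nkx6-2. These matches describe the letters only and no binding was measured.

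The libraries held 6978 and 5437 barcodes with 44597660 and 37982720 UMIs, of which 9 barcode sequences occurred in both, and 12007 cells were analysed. Cells of the lineage were divided into OPC-like cells (300 in library 1 and 341 in library 2), differentiating oligodendrocyte-like cells (120 and 88) and mature oligodendrocyte-like cells (1077 and 1061), with the members left out of the clustering. The division follows the markers: the 8 OPC markers, Pdgfra and Cspg4 among them, summed to 7454 and 7555 CPM (UMIs of a gene per 1000000 UMIs of the class in that library) in OPC-like cells against 48.4 and 43.8 CPM in mature cells, and the 11 differentiating markers, among them Gpr17 and Bmp4, to 10420 and 9584 CPM in differentiating cells. The 14 mature markers, myelin genes such as Mbp among them, summed to 102783 and 95510 CPM in mature cells. They already stood at 44817 and 47302 CPM in differentiating cells, and at 4759 and 1259 CPM in OPC-like cells. The differentiating markers summed to 2084 and 1916 CPM in OPC-like and to 654 and 623 CPM in mature cells. The OPC markers summed to 894 and 808 CPM in differentiating cells. The clusters were named from these same markers. Median UMIs per cell were 7086 and 7222 in OPC-like, 12271 and 12352 in differentiating and 10998 and 12145 in mature cells. The 8 astrocyte markers stood at 164.6 to 1365 CPM and the 7 microglia markers at 79.4 to 281 CPM in the 3 stages, against 16932 and 18340 CPM in astrocyte-like and 33560 and 35402 CPM in microglia-like cells. The 5 erythroid markers, haemoglobin genes and Alas2, stood at 4513 and 8967 CPM in differentiating cells, at 1480 and 17.8 CPM in OPC-like and at 568 and 12.9 CPM in mature cells, against 890064 and 841410 CPM in erythroid-like cells, and none of the 5 was at 0 in any stage. Most of this RNA lay in 8 of 120 and 2 of 88 differentiating cells, without which the sums were 82.4 and 14.4 CPM, and the stage comparisons were also made without such cells. A further 54 cells that carried the markers of astrocytes or microglia as well were left out.

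Between stages, 19 of 24 member comparisons passed the test, 11 higher and 8 lower, and the members fell into 3 patterns. Olig1 and Olig2 were highest in OPC-like cells, Tcf7l2, Zfp488 and Nkx2-2 in differentiating cells, and Nkx6-2 and St18 in mature cells, while Myrf reached its level in differentiating cells and was at the same CPM in mature ones. From OPC-like to differentiating cells 6 members rose and 1 fell, whereas 17.2% of the 15027 genes tested rose and 19.0% fell. From differentiating to mature cells 2 rose and 4 fell, against 23.6% and 13.4% of genes, and from OPC-like to mature cells 3 rose and 3 fell, against 31.2% and 24.2%. Fold changes are from edgeR's quasi-likelihood test on summed UMIs with TMM scaling and the library as a block, and Benjamini-Hochberg adjusted p-values cover all genes tested. The stages and classes were themselves defined by clustering the same cells. The members were left out of that clustering, but genes that vary with them were not, and the p-values make no allowance for this.

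**Figure D1:**
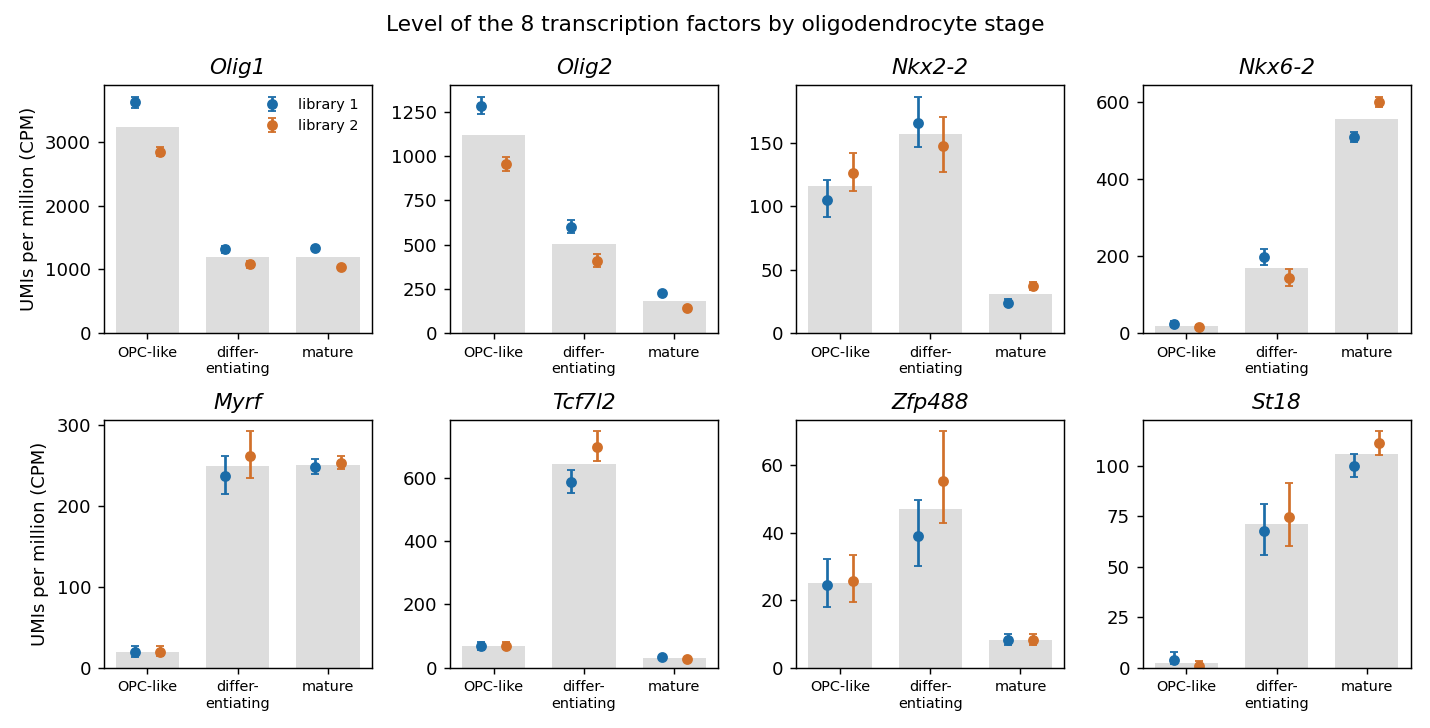
Level of each member in CPM by stage. Grey bars are means of 2 libraries, points are the libraries and error bars exact Poisson 95% intervals of the counts. Tcf7l2, Zfp488 and Nkx2-2 peak in differentiating cells, Olig1 and Olig2 in OPC-like cells, and Nkx6-2 and St18 in mature cells.

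Olig1, a basic helix-loop-helix factor, stood at 3623 and 2847 CPM in OPC-like cells, at 1312 and 1076 CPM in differentiating cells and at 1339 and 1036 CPM in mature cells. Both OPC-like values lay above all other values, while those of the later stages overlapped. Olig1 fell by 1.07 on the log2 scale from OPC-like to differentiating cells (SE 0.30, adjusted p = 0.00819, edgeR). The later step gave a log2 fold change of 0.53 (SE 0.29, adjusted p = 0.179), and the span from OPC-like to mature gave -0.54 (SE 0.29, adjusted p = 0.125). Olig2, its neighbour and the factor that specifies the lineage, had 1286 and 957 CPM in OPC-like, 602 and 409 CPM in differentiating and 226 and 142 CPM in mature cells, with no overlap between stages. Olig2 fell by 1.73 from OPC-like to mature cells (SE 0.32, adjusted p = 1.5e-04) and by 0.93 from differentiating to mature cells (SE 0.32, adjusted p = 0.0288). The first step, -0.80 (SE 0.32), did not pass (adjusted p = 0.0586). The difference between these neighbouring genes in the second step was not tested. In all 10 classes that entered the fit Olig1 was higher in library 1 than in library 2, and Olig2 in 9 of 10.

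The first-step fall of Olig1 passed in 14 of 16 alternatives with a test (adjusted p from 1.0e-09 to 0.244) and the second-step fall of Olig2 in 14 of 16 (7.1e-07 to 0.227). The first step of Olig2 passed in 9 of 16 (2.1e-05 to 0.322) and the Olig1 difference between mature and OPC-like cells in 8 of 16 (9.0e-06 to 0.464).

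Tcf7l2, the Wnt pathway factor, peaked in differentiating cells. It stood at 68.5 and 69.0 CPM in OPC-like cells, at 588 and 698 CPM in differentiating cells and at 33.4 and 26.5 CPM in mature cells. Differentiating cells lay far above the stages before and after in both libraries. Tcf7l2 rose by 3.58 on the log2 scale from OPC-like cells (SE 0.25, adjusted p = 6.1e-09), an 11.9-fold rise, and fell by 3.87 to mature cells (SE 0.25, adjusted p = 1.2e-09), a 14.7-fold fall. Mature over OPC-like cells gave -0.30 (SE 0.24) and did not pass, although the CPM values of these stages did not overlap, and it passed in 3 of 16 alternatives (adjusted p from 3.2e-04 to 0.980). Both steps passed in all 16 alternatives with a test. At the cells' own depth the UMIs were unevenly spread within the stage of 120 and 88 cells. The 20 differentiating cells with most Tcf7l2 held 63.1% of its UMIs in library 1 and 76.4% in library 2, with up to 67 and 80 UMIs in 1 cell. Differentiating cells with Tcf7l2 were also deeper, with medians of 17530 and 13425 UMIs against 4130 and 1634 in those without it. The part of depth in this spread was not tested.

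Zfp488, the zinc finger co-repressor, had the same order of stages at a lower level. It stood at 24.4 and 25.8 CPM in OPC-like, 38.9 and 55.1 CPM in differentiating and 8.14 and 8.31 CPM in mature cells. The stages did not overlap. Zfp488 rose by 1.23 (SE 0.27, adjusted p = 0.00168) and then fell by 1.91 (SE 0.26, adjusted p = 1.4e-05), and each step passed in 15 of 16 alternatives, the exception being cells thinned to 1000 UMIs. Mature cells lay below OPC-like cells by a log2 fold change of -0.68 (SE 0.26, adjusted p = 0.0335), a call that passed in 13 of 16 alternatives. Nkx2-2, a homeodomain factor of the NK2 class, stood at 105 and 126 CPM in OPC-like cells, at 166 and 148 CPM in differentiating cells and at 24.01 and 37.1 CPM in mature cells. In its second step Nkx2-2 fell by 1.85 (SE 0.24, adjusted p = 7.5e-06), and mature cells were also below OPC-like cells (-1.02, SE 0.24, adjusted p = 0.00125). The first step of 0.83 (SE 0.24, adjusted p = 0.0118) passed in 12 of 16 alternatives, with adjusted p up to 1.00. Without the cells of all classes in which the erythroid markers took at least 1% of UMIs (the 31 cells included 10 differentiating ones), differentiating cells had 608 and 725 CPM of Tcf7l2, 40.3 and 57.6 CPM of Zfp488 and 171 and 152 CPM of Nkx2-2, and 20 of 24 stage comparisons passed, with the second step of Myrf added. Over all genes 5465 were then called in the first step, 5571 in the second and 8319 over the whole span, against 5431, 5557 and 8322 with these cells.

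Myrf, the factor that drives myelin genes, was at 19.3 and 20.03 CPM in OPC-like cells and at 238 and 262 CPM in differentiating cells. In mature cells it was at 249 and 254 CPM. The differentiating and mature values overlapped and both lay above those of OPC-like cells. The first step was 3.98 (SE 0.28, adjusted p = 5.4e-09), a 15.8-fold rise, and the second 0.55 (SE 0.22, adjusted p = 0.0560), with 4.53 over the whole span (SE 0.27, adjusted p = 2.0e-10). That second step passed in 8 of 16 alternatives, with log2 fold changes from 0.01 to 0.76. The passing ones include all those added after seeing the data: mixed clusters kept, shallow clusters left out and cells with erythroid RNA left out.

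Nkx6-2, a homeodomain factor of myelinating oligodendrocytes, climbed through both steps. It stood at 22.8 and 14.7 CPM in OPC-like cells, at 198 and 144 CPM in differentiating cells and at 511 and 602 CPM in mature cells, with no overlap. The steps were 3.52 (SE 0.53, adjusted p = 4.3e-05) and 2.24 (SE 0.43, adjusted p = 4.4e-04), and the whole span was 5.76 (SE 0.53, adjusted p = 4.2e-08). St18, of the Myt1 family, went from 8 and 2 UMIs in OPC-like cells, which are 4.06 and 0.890 CPM, to 67.8 and 74.6 CPM in differentiating cells and 100.2 and 111 CPM in mature cells. Its first step was 4.88 (SE 0.41, adjusted p = 6.3e-08), its second 1.11 (SE 0.25, adjusted p = 0.00173) and its span 5.99 (SE 0.38, adjusted p = 3.2e-10). With so few UMIs in OPC-like cells the size depended on the library: the first step was 5.79 without replicate 1 and 4.28 without replicate 2, and the span 6.75 and 5.28. The second step passed in 15 of 16 alternatives for Nkx6-2 and in 12 of 16 for St18.

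**Figure D2:**
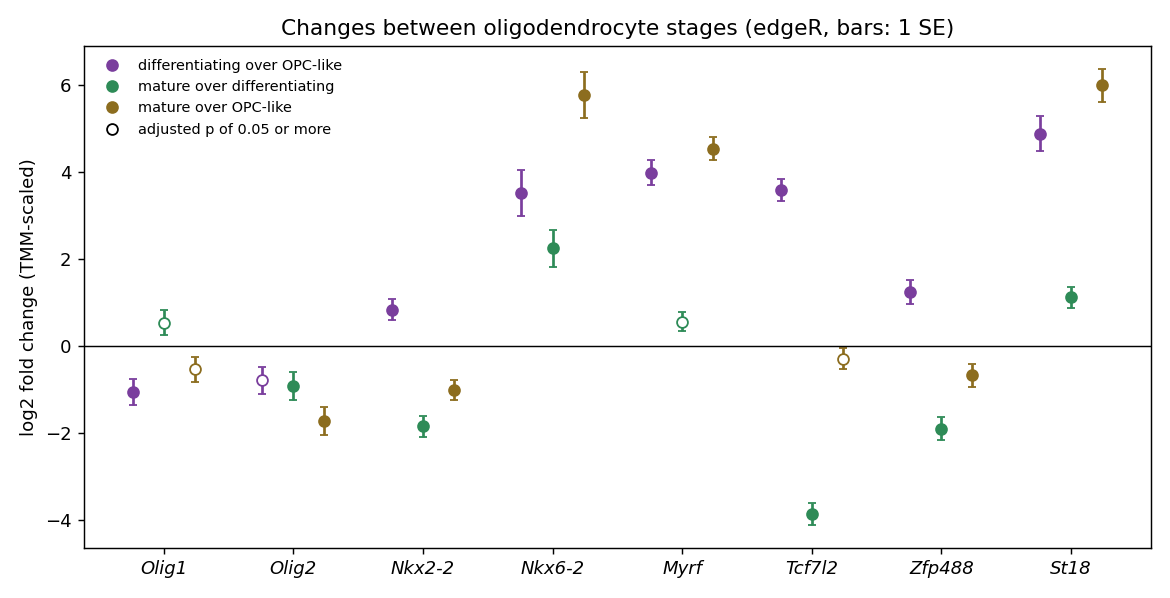
TMM-scaled log2 fold change between stages for each member, with bars of 1 SE derived from the fold change and the F statistic of edgeR. Filled points passed an adjusted p of 0.05 and open points did not. Nkx6-2, Myrf and St18 lie above 4 for mature over OPC-like cells, and Tcf7l2 lies above 3 for the first step and below -3 for the second.

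The steps were read on 3 scales, since the 14 mature markers alone took 102783 and 95510 CPM in mature cells. With TMM scaling the median log2 fold change of all genes was -0.07, 0.20 and 0.10 for differentiating over OPC-like, mature over differentiating and mature over OPC-like cells, and with library sizes alone it was -0.42, -0.22 and -0.64. The share of called genes that were higher went from 47.5%, 63.7% and 56.3% with TMM to 45.4%, 44.7% and 41.9% with DESeq2 and to 23.9%, 27.6% and 17.7% with library sizes alone. Relative to the median of all genes, the 24 member differences kept their sign under all 3 scalings. A change of scaling shifts all genes by nearly the same amount, and subtracting the median removes that shift, so this does not test the scaling. Without the subtraction, 3 members were called higher and 3 lower in mature over OPC-like cells with TMM and with DESeq2. With library sizes alone 3 were called higher and 5 lower. Relative to that median the second step of Olig1 was 0.33, 0.29 and 0.20, and that of Myrf was 0.35, 0.31 and 0.23.

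The same order appeared in the share of cells with a UMI once every cell was thinned to 1000 UMIs, which left 289 and 333 OPC-like, 117 and 84 differentiating and 1020 and 1051 mature cells. Tcf7l2 was detected in 33.3% and 45.2% of differentiating cells, in 5.88% and 6.01% of OPC-like cells and in 3.33% and 3.14% of mature cells. Without thinning these shares were 71.7% and 86.4%, 31.3% and 31.1%, and 25.1% and 25.0%. In neuron-like cells, where the gene was lowest, 1.48% and 0.483% had a Tcf7l2 UMI after thinning, at median depths of 2502 and 2632 UMIs before it. Olig1 was detected in 88.6% of OPC-like cells of both libraries, in 55.6% and 51.2% of differentiating and in 59.3% and 54.6% of mature cells. After thinning 4.32% and 2.69% of microglia-like cells also had an Olig1 UMI, at median depths of 6929 and 5502 UMIs before it. Nkx6-2 was detected in 30.6% and 41.5% of mature cells against 3.11% and 1.80% of OPC-like cells and 1.96% and 0.932% of microglia-like cells, so that its OPC-like share was close to background. No St18 UMI was left among the 289 and 333 thinned OPC-like cells, which allows shares of up to 1.04% and 0.901% of cells with a UMI at that depth, against 7.84% and 9.61% of mature cells. At their own depth 5 of 300 and 2 of 341 OPC-like cells had a St18 UMI. The intervals and limits cover counting error only.

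In cells thinned to 2000 UMIs, which removes differences in depth, 2.25 and 2.29 members were detected per OPC-like cell, 2.91 and 3.12 per differentiating cell and 2.35 and 2.33 per mature cell. Within the differentiating stage 84 of 105 cells of library 1 and 56 of 75 cells of library 2 had an Olig1 UMI. Tcf7l2 was found in 40.5% and 55.4% of these cells, and in 71.4% and 79.0% of the few cells without Olig1. Myrf went the other way. Of the differentiating cells with Myrf, 65.7% and 67.7% also had Tcf7l2, and of those without Myrf 37.1% and 56.8% had it. Cells of a library are not replicates, so these shares are given without a test. Other pairs of members are not described here.

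Clustering split the lineage further, into 7 clusters of which 4 were mature, and the members differed between them. These mature clusters were a deep cluster led by Ctps and Onecut2 (155 cells, median 26404 UMIs), a large cluster led by Ptgds and Il33 (816 cells, 12904 UMIs), a cluster led by Klk6 and Anln (447 cells, 16974 UMIs) and a shallow cluster of 720 cells with 2449 UMIs and a median mitochondrial share of 22.3%. Zfp488 stood at 19.9 and 16.7 CPM in the Ctps cluster, at 8.23 and 9.08 CPM in the Ptgds cluster and at 2.24 and 3.55 CPM in the Klk6 cluster. Olig2 followed the same order with 348 and 239.8 CPM, 255 and 156 CPM, and 155 and 78.5 CPM. Olig1 did too, with 2044 and 1606 CPM in the Ctps cluster and 1088 and 819 CPM in the Klk6 cluster. Nkx2-2 was higher in the Klk6 cluster, at 35.2 and 46.8 CPM, than in the Ctps cluster, at 21.2 and 24.8 CPM. Over the Ctps, Ptgds and Klk6 clusters of both libraries Myrf, at 241.8 to 263.8 CPM, and St18, at 98.6 to 118.6 CPM, had narrow ranges. St18 overlapped among the 3 clusters, and Myrf was at 258 and 264 CPM in the Ptgds, 249.6 and 247 CPM in the Ctps and 242 and 244 CPM in the Klk6 cluster. The order held within each library for Zfp488, Olig1 and Olig2. The clusters were defined from the same cells, so no test was made.

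In the shallow mature cluster Nkx6-2 stood at 187 and 209 CPM, against 504 to 656 CPM in the 3 deep clusters, and Olig1 at 645 and 553 CPM. St18 was also lower there, at 75.1 and 48.6 CPM against 98.6 to 118.6 CPM in the deep clusters. Myrf, at 235 and 247 CPM, and Tcf7l2, at 38.3 and 25.6 CPM, overlapped with the deep clusters. The median mitochondrial share was 22.3% in this cluster and 4.99% to 6.08% in the deep clusters, and median UMIs were 2449 against 12904 to 26404. By library the share in this cluster was 19.4% and 28.1%. In this cluster 5 of 7 endothelial markers were also raised at least 2-fold over the rest of the lineage. In the shallow OPC-like cluster described next, 5 of 8 astrocyte markers were. The part of the mitochondrial share, of depth or of RNA of other classes in these values was not tested. In the OPC-like stage the shallow cluster (184 cells, median 1882 UMIs and 10.4% mitochondrial UMIs) had 1851 and 1605 CPM of Olig1 against 3835 and 2947 CPM in the deep cluster of 457 cells, and 702 and 455 CPM of Olig2 against 1356 and 997 CPM. Without both shallow clusters 21 of 24 stage comparisons passed, and with cells of under 20% mitochondrial UMIs 19 did. Over all genes, differentiating over OPC-like, mature over differentiating and mature over OPC-like cells had 5431, 5557 and 8322 calls in the main fit. Without the shallow clusters there were 5268, 5722 and 8377, and under 20% mitochondrial UMIs 5384, 5568 and 8339.

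**Figure D3:**
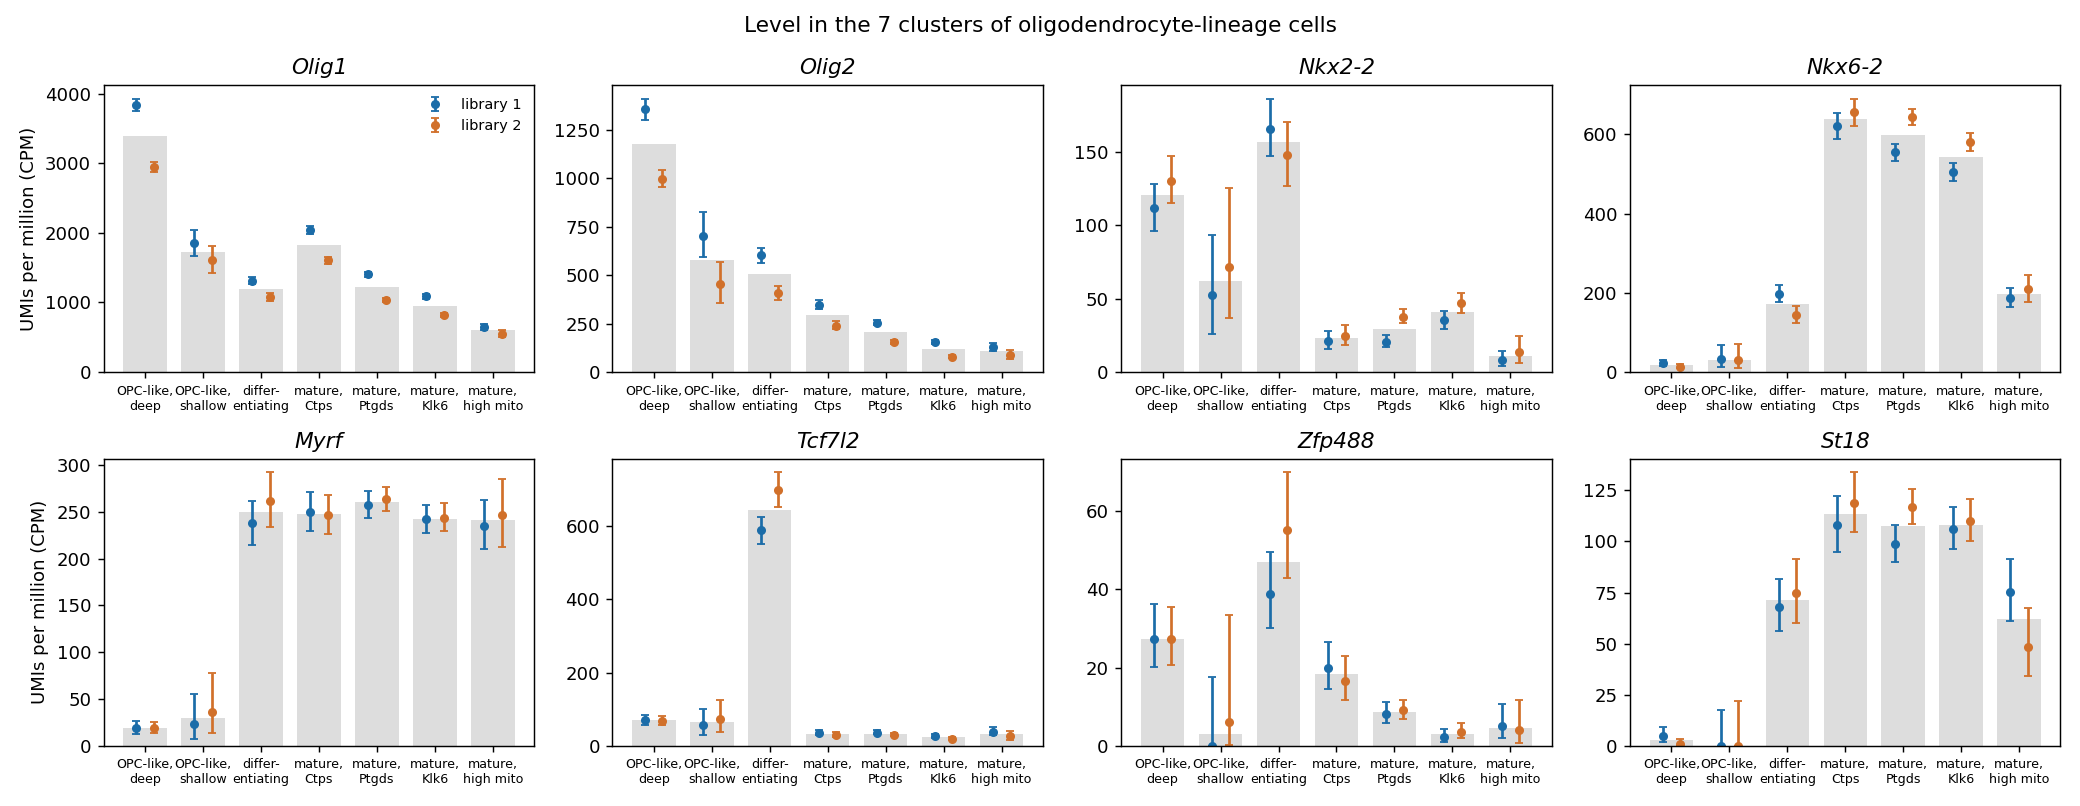
Level of each member in CPM in the 7 clusters of the lineage, with the mature clusters named by a leading gene or by their mitochondrial share. Bars are means of 2 libraries, points are libraries and error bars exact Poisson 95% intervals. Zfp488, Olig1 and Olig2 descend from the Ctps to the Ptgds to the Klk6 cluster, Myrf ranges from 235 to 264 CPM over the mature clusters, and Nkx6-2 is low in the cluster with a high mitochondrial share.

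Against the 7 other classes, the lineage, taken as the equally weighted log2 mean of its 3 stages, was higher in 53 of 56 member comparisons, and the other 3 did not pass. The shares of genes called higher in the lineage, as background, were 27.3% over astrocyte-like, 28.1% over endothelial-like, 23.2% over macrophage-like, 29.0% over microglia-like, 27.3% over mural-like, 27.2% over neuroblast-like and 30.5% over neuron-like cells. Olig1, Olig2, Nkx2-2, Nkx6-2, Myrf and Zfp488 were higher than in all 7 classes. The exceptions were Tcf7l2 against astrocyte-like cells (-0.30, SE 0.18, adjusted p = 0.174) and against microglia-like cells (-0.03, SE 0.16, adjusted p = 0.919), and St18 against neuroblast-like cells (-0.40, SE 0.21, adjusted p = 0.117). Against astrocyte-like cells Tcf7l2 was lower past the threshold in 2 of 15 alternatives (adjusted p from 0.00638 to 0.371), and against neuroblast-like cells St18 in 4 of 15 (0.00810 to 0.318). The share of called genes that were higher in the lineage moved with the scaling for some classes, from 46.5% to 62.0% over microglia-like and from 52.8% to 39.6% over neuron-like cells with library sizes alone, and with DESeq2 from 52.8% to 37.2% over neuron-like and to 41.8% over macrophage-like cells.

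Zfp488 had few UMIs outside the lineage. Its 454 UMIs in the lineage stood against 1 UMI in astrocyte-like, 3 in microglia-like, 3 in endothelial-like, 1 in mural-like and 1 in neuron-like cells. The ratio of pooled CPM over astrocyte-like cells was 127, with a counting interval of 22.7 to 5030, and over microglia-like cells 57.3 (19.5 to 279). No UMI fell among the 1078718 of macrophage-like cells, which allows 2.78 CPM, so that the pooled lineage at 13.7 CPM was at least 4.92-fold higher. Neuroblast-like cells had 3 and 2 UMIs.

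Olig1 and Olig2 were detected in every class. Among the 7 classes outside the lineage Olig1 ranged from 20.5 CPM in microglia-like cells of library 2 to 113 CPM in astrocyte-like cells of library 1. These classes overlapped with their neighbours in the order of levels. Its lineage level was 17.2-fold to 44.2-fold higher by the fit (log2 4.10 over astrocyte-like, SE 0.31, adjusted p = 3.8e-09, to 5.47 over macrophage-like cells, SE 0.40, adjusted p = 2.1e-09). Olig2 ranged from 0.633 to 32.3 CPM in these 7 classes, and its astrocyte-like (32.3 and 28.2 CPM) and neuroblast-like values (27.6 and 27.3 CPM) lay above those of microglia-like cells (10.6 and 4.03 CPM). At a finer resolution, cycling progenitor-like cells carried 38.7 and 38.5 CPM of Olig2 and neuroblast-like cells 14.9 and 7.19 CPM. Fibroblast-like cells (35 and 22), counted among mural-like cells above, had there a mean of 226.9 CPM of Olig1 (SD 208.4 over the libraries). Their mean of Olig2 was 69.8 CPM (SD 98.7). Mural-like cells without them had means of 28.8 CPM of Olig1 and 6.29 CPM of Olig2, against 47.9 and 12.4 CPM with them. Over endothelial-like cells the log2 difference of Olig1 was 4.90, and 5.83 without replicate 1 and 4.24 without replicate 2. Over mural-like cells it was 5.31, and 5.96 without replicate 1. That of Olig2 over mural-like cells was 5.28, and 8.20 without replicate 1, where mural-like cells had 1 UMI, and 4.61 without replicate 2, and over macrophage-like cells 5.02, and 4.42 without replicate 1.

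Tcf7l2 was expressed beyond the lineage. It stood at 123 and 149 CPM in astrocyte-like cells, at 99.45 and 73.8 CPM in microglia-like cells and at 60.2 and 60.7 CPM in mural-like cells. All of these lay above mature oligodendrocyte-like cells, at 33.4 and 26.5 CPM, and astrocyte-like and microglia-like cells also lay above OPC-like cells, at 68.5 and 69.0 CPM. Neuron-like cells were lowest with 14.5 and 5.62 CPM. The number of Tcf7l2 UMIs per Olig1 UMI was 2.49 and 3.60 in microglia-like and 1.09 and 1.79 in astrocyte-like cells, against 0.448 and 0.649 in differentiating and 0.0249 and 0.0256 in mature cells, and the part of free RNA in these UMIs was not tested. Tcf7l2 was found in 350 of 1371 and 392 of 1030 astrocyte-like cells, with at most 7 UMIs in a cell. At the finer resolution ependymal-like cells (59 and 53), counted among astrocyte-like cells above, had 119 and 102 CPM. The lineage was above macrophage-like cells by 0.99 (SE 0.29, adjusted p = 0.00847), which was 1.75 without replicate 1, and above neuron-like cells by 3.60 (SE 0.31, adjusted p = 1.7e-08), which was 4.21 without replicate 1.

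Outside the lineage St18 was highest in neuroblast-like cells. It stood at 39.0 and 44.6 CPM in neuroblast-like cells and at 18.2 and 8.83 CPM in neuron-like cells, which did not overlap. The neuron-like UMIs lay in 6 of 382 and 4 of 259 cells, and after thinning to 1000 UMIs 0 of 270 (which allows up to 1.11%) and 0.966% of 207 had one, against 2.88% and 2.51% of neuroblast-like and 0.687% and 0.104% of microglia-like cells. In microglia-like cells it stood at 2.68 and 1.65 CPM. In neuroblast-like cells there were 8.48 and 12.9 St18 UMIs per Myrf UMI, and in mature oligodendrocyte-like cells 0.403 and 0.439. It occurred in 128 of 1114 and 57 of 443 neuroblast-like cells, and those cells had 1616 and 669 CPM of mature oligodendrocyte markers against 2168 and 915 CPM in neuroblast-like cells without it. Cells with St18 were also deeper, with medians of 10077 and 7933 UMIs against 2136 and 2482. At the finer resolution the level was 41.0 and 62.7 CPM in neuroblast-like and 37.3 and 34.1 CPM in progenitor-like cells. Over neuron-like cells the lineage was higher by 1.27 (SE 0.41, adjusted p = 0.0134), a call that passed in 10 of 15 alternatives. Over macrophage-like and mural-like cells, with 2 and 3 St18 UMIs, the ratio of pooled CPM was 48.4 (13.4 to 399) and 103 (35.2 to 499). Over endothelial-like cells the log2 difference was 2.35 (SE 0.42, adjusted p = 1.2e-04), and 3.32 without replicate 1. After thinning to 1000 UMIs, which left OPC-like cells without a St18 UMI, the 6 differences of St18 that had passed no longer did (adjusted p up to 1.00).

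Among the homeodomain factors, Nkx2-2 stood at 14.7 and 22.6 CPM in astrocyte-like cells and at 4.30 CPM or less in each of the other 6 classes. At the finer resolution fibroblast-like cells, here counted among mural-like cells, had a mean of 17.3 CPM (SD 15.1 over the libraries). Mural-like cells without them had a mean of 1.24 CPM. The lineage was above astrocyte-like cells by 2.13 (SE 0.23, adjusted p = 3.5e-07). Its UMIs per Olig1 UMI were 0.130 and 0.271 in astrocyte-like cells, 0.126 and 0.137 in differentiating, 0.0179 and 0.0358 in mature and 0.0141 and 0.00893 in microglia-like cells. Over macrophage-like cells, with 1 UMI, the ratio of pooled CPM was 57.1 (10.2 to 2255), and the log2 difference of 5.70 was 4.84 without replicate 1 and 7.21 without replicate 2. The log2 difference over mural-like cells was 4.64, and 5.51 without replicate 1, and that over neuron-like cells was 4.99, and 5.99 without replicate 1.

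Nkx6-2 in astrocyte-like cells split the libraries, with 23.9 CPM in library 1 and 92.9 CPM in library 2. The lineage was above them by 1.05 (SE 0.39, adjusted p = 0.0313), but by 2.54 without replicate 2 and by 0.12 without replicate 1, and the call passed in 11 of 15 alternatives. In library 2 the 431 UMIs lay in 163 of 1030 cells, of which 24 had at least 5 UMIs and 1 had 19. Those cells, with a median of 5976 UMIs, had 1354 CPM of mature oligodendrocyte markers, and astrocyte-like cells of the same library without Nkx6-2, with 2458 UMIs, had 1122 CPM. In library 1 the 92 of 1371 astrocyte-like cells with Nkx6-2, with a median of 2861 UMIs, had 5088 CPM of these markers. Those without it, with 1783 UMIs, had 2971 CPM. The part of oligodendrocyte RNA in the Nkx6-2 UMIs was not tested. There were 22.7 Nkx6-2 UMIs per Myrf UMI in astrocyte-like cells of library 2 and 2.92 in those of library 1, against 2.05 and 2.37 in mature oligodendrocyte-like cells. OPC-like cells, at 22.8 and 14.7 CPM, overlapped with endothelial-like cells, at 27.1 and 8.57 CPM. At the finer resolution fibroblast-like cells had a mean of 34.9 CPM of Nkx6-2 (SD 25.6 over the libraries). Ependymal-like cells, here counted among astrocyte-like cells, had a mean of 34.2 CPM (SD 31.8). The log2 difference over endothelial-like cells was 2.66, and 3.46 without replicate 1, and over macrophage-like cells 2.86, and 1.99 and 3.75 without replicates 1 and 2.

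Myrf was low in the classes outside the lineage, from 2.53 to 17.0 CPM, and the lineage lay 8.06-fold to 25.8-fold above them. At the finer resolution fibroblast-like cells had a mean of 22.9 CPM (SD 23.0 over the libraries). The smallest difference was over macrophage-like cells (3.01, SE 0.40, adjusted p = 5.7e-06) and the largest over neuroblast-like cells (4.69, SE 0.29, adjusted p = 2.6e-10). OPC-like cells, at 19.3 and 20.03 CPM, lay just above neuron-like cells, at 17.0 and 10.4 CPM. Over endothelial-like cells the log2 difference was 3.42, and 4.32 without replicate 1. Over mural-like cells it was 4.15, and 5.09 and 3.56 without replicates 1 and 2.

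**Figure D4:**
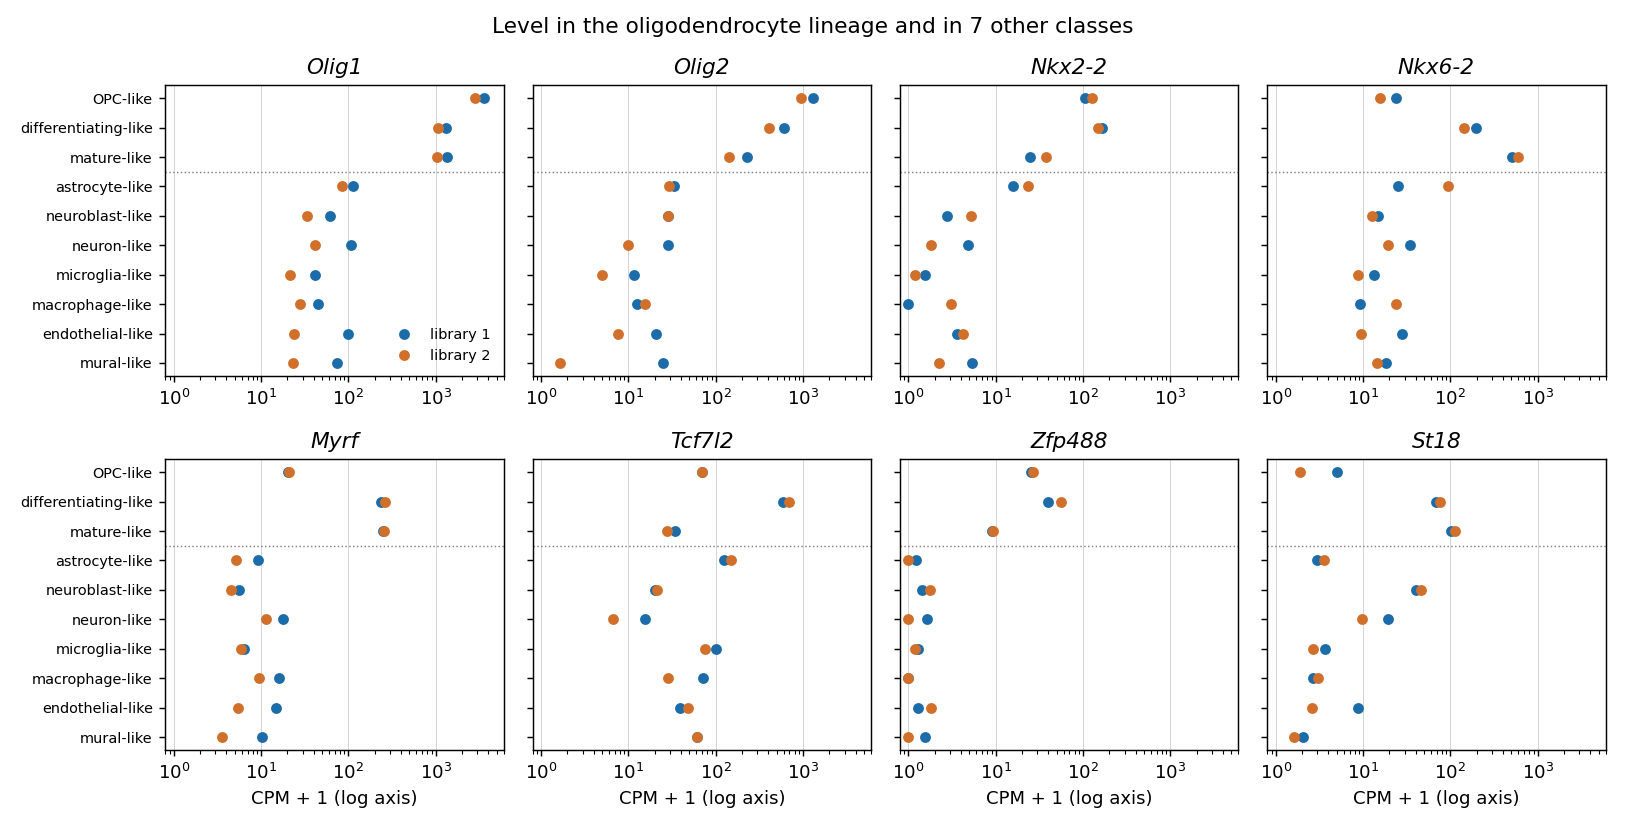
Level of each member in 10 classes as CPM + 1 on a log axis, 1 point per library, with the 3 stages of the lineage above the dotted line. Zfp488 is near 0 outside the lineage, Tcf7l2 in astrocyte-like and microglia-like cells lies above mature oligodendrocyte-like cells, St18 is raised in neuroblast-like cells, and Nkx6-2 differs between libraries in astrocyte-like cells.

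Other regulators of the lineage were described as lists chosen from textbook knowledge, but with earlier results of these data known. The comparison was mature over OPC-like cells. In it 31.2% of all genes tested rose and 24.2% fell. Of 13 precursor-stage regulators, 11 fell and 1 rose, with a median log2 fold change of -4.59 against 0.10 for all genes tested. Sox6 (-6.82, SE 0.42, adjusted p = 2.9e-10), Sox3 (-6.13, SE 0.33, adjusted p = 1.2e-10) and Sox5 (-5.69, SE 0.38, adjusted p = 6.3e-10), SOX factors of precursor and progenitor cells, fell most, and Zfp536, a zinc finger repressor, rose by 3.39 (SE 0.30, adjusted p = 2.3e-08). Of the members, Olig2, Nkx2-2 and Zfp488 fell over the same span, by 1.73, 1.02 and 0.68. Of 20 differentiation regulators, 13 rose, 3 fell and 4 did not pass, with a median of 0.55. Tmem98, a membrane protein that binds Myrf and blocks its cleavage, rose by 3.39 (SE 0.32, adjusted p = 5.6e-08), and Zeb2, a repressor of inhibitory signals, by 2.43 (SE 0.30, adjusted p = 1.6e-06). Thrb and Rxrg, which encode nuclear receptors, fell by 3.36 (SE 0.35, adjusted p = 2.0e-07) and 2.75 (SE 0.36, adjusted p = 3.1e-06). The split of this list depended on the scaling, with 6 higher and 4 lower by DESeq2 and 4 higher and 9 lower with library sizes alone, whereas the precursor list had 1 higher and 12 lower under both.

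Of 11 relatives of the members, 8 were tested, and 1 rose, 4 fell and 3 did not pass, against 31.2% of all genes that rose and 24.2% that fell. Myt1 and Myt1l, relatives of St18, fell by 5.30 (SE 0.26, adjusted p = 4.4e-11) and by 2.61 (SE 0.35, adjusted p = 3.6e-06), the opposite direction to St18. Tcf7, a relative of Tcf7l2, had 20 UMIs in OPC-like and 2 in mature cells, a ratio of pooled CPM of 61.7 (15 to 544). The fitted log2 fold change of Tcf7 was smaller, at -2.59 (SE 0.57). Nkx2-9, a relative of Nkx2-2, went the other way from Nkx2-2. It had 735 UMIs in mature and 3 in OPC-like cells, a ratio of 39.7 (13.5 to 193), with a fitted log2 fold change of 5.19 (SE 0.57). Olig3, Nkx6-3 and Myrfl had 0, 4 and 2 UMIs in all and were not tested. Of 8 Wnt target genes, 4 fell and 4 did not pass from OPC-like to differentiating cells, the step in which Tcf7l2 rose. Of all genes tested 19.0% fell and 17.2% rose in that step. From OPC-like to mature cells 5 of the Wnt targets fell, 1 rose and 2 did not pass, against 24.2% and 31.2% of all genes that fell and rose. Nkd1, an inhibitor induced by Wnt signalling, rose by 1.76 (SE 0.23, adjusted p = 4.1e-06). Lgr5, a receptor for R-spondins, had 38 UMIs in OPC-like and 2 in mature cells, a ratio of pooled CPM of 117 (30.3 to 1002). The fitted log2 fold change of Lgr5 was smaller, at -3.40 (SE 0.48), so its size depended on the measure.

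The genes whose level over the 20 sums of libraries and classes was most like each member, by Pearson's correlation of log2(CPM + 10) among 15027 genes, are a description of these sums, which share libraries and classes. Olig1 and Olig2 were each other's nearest gene (r = 0.973), with Sox10 next for both (0.966 and 0.953), followed by Kctd4 for Olig1 and Nkx2-2 for Olig2 (0.944). For Nkx2-2 they were Chadl (0.974), Abtb2 (0.971) and Tmco3 (0.962), and for Zfp488 they were Tmem163 (0.962), Gpr17 (0.959), a receptor of differentiating cells, and Fbn2 (0.953). Myrf was nearest to Kndc1 (0.983), Ado (0.982) and Cpox (0.980), and Nkx6-2 to Gpr37 (0.962), Gm33727 (0.949) and Wnt3 (0.941). St18 was nearest to Carhsp1 (0.931), Trim59 (0.927) and Poc1a (0.917). Tcf7l2 had the weakest nearest genes, Zfp516 (0.899), Inppl1 (0.897) and Ppnr (0.884), and Ppnr lies within its own gene.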

How the data were processed

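Single-cell RNA-seq of 2 striatal libraries was analysed. Per the labels and the study's methods, the authors sequenced 10x Genomics 3′ libraries (kit v2 and v3, not given per library), aligned reads to mm10 with Cell Ranger (4.0 in the labels, 4.0.0 in the file header, 3.0 in the methods) and deposited filtered matrices of UMI counts, which were used as deposited. A UMI marks 1 captured molecule, and 3′ counts do not scale with transcript length.

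Barcodes under 300 detected genes were left out (80 and 73), as were doublets called by Scrublet (expected rate 6%, scanpy 1.11.5; 96 and 159 cells, 1.39% and 2.96%). Libraries were integrated by CCA in Seurat 5.3.0 (30 components, resolution 0.08, lineage again at 0.3) without the members and list genes, and clusters were called "-like" from fixed markers. Lineage clusters in which at least 80% of the markers of another class were also raised over the rest of the lineage were left out (54 cells). The shallow clusters stayed below this limit and were kept. Neuroblast-like cells include cycling cells, mural-like cells include fibroblast-like cells and astrocyte-like cells include ependymal-like cells. Erythroid-like cells (86 and 11) did not enter the fit. Between 1 UMI count sum per class and library, 15027 genes were tested with edgeR 4.0.16 (quasi-likelihood, TMM, prior count 2, library as block, Benjamini-Hochberg adjusted p under 0.05). Each SE was derived as the absolute log2 fold change divided by the square root of the F statistic of that test. It is not a value that edgeR reports. The fold change includes the prior count, so for genes with few UMIs this SE can be smaller than the difference between the libraries. DESeq2 1.42.0 was an alternative. CPM is the UMI count of a gene per 1000000 UMIs of a class in a library, and shares of cells have exact binomial and CPM exact Poisson 95% intervals, for counting error only. Where no UMI or no cell was found, the value said to be allowed is 3 counts over the total, which lies below the upper end of the exact interval. The block pairs classes within a library because cells of a library come from 1 preparation. On simulated counts for differentiating over OPC-like cells (14794 genes) it recovered 76% of genes changed 4-fold and 49% of those changed 2-fold, 200 in all, with 3 false calls. All other genes were set equal between the stages there, whereas 5431 genes were called between the real stages. The simulation therefore does not give the rate of false calls in the real comparison. Total UMIs per library were 44597660 and 37982720, with medians of 3852 and 5375 per barcode.

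The members, lists and tests were chosen with earlier results of these data known. List genes described with a change were taken from the 3 largest rises and falls of each list that passed in mature over OPC-like cells, and genes like a member are its 3 highest correlations. Klf9 (log2 fold change 1.79) and Hdac2 (-0.42) of the differentiation regulators and Sp5 (-2.33) and Rnf43 (-1.56) of the Wnt targets met the same rule and are not described above. Alternatives changed the normalization, block, filters, thinning, doublets, clustering and libraries, and leaving out clusters with few UMIs, keeping mixed ones or leaving out cells with erythroid RNA was added after seeing the data. These later settings are counted among the 16 alternatives for stages and the 15 for classes given above.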

Additional observations from a re-analysis of the deposited data

How the results depend on the processing

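With every cell thinned to 1000 UMIs, which left out shallower cells and reduced the genes tested from 15027 to 10542, the genes called went from 5431 to 1421 for differentiating over OPC-like, 5557 to 1594 for mature over differentiating and 8322 to 3832 for mature over OPC-like cells. For the lineage over the other classes they went from 8311 to 3640 (astrocyte-like), 8498 to 4411 (endothelial-like), 6584 to 2504 (macrophage-like), 9364 to 4885 (microglia-like), 8148 to 3358 (mural-like), 8313 to 3940 (neuroblast-like) and 8684 to 3765 (neuron-like). Without the replicate block, which pairs classes of a library, 16 stage comparisons of members passed instead of 19, and 53 class comparisons as with it. DESeq2 and thinning also left 16, and over all alternatives the numbers were 16 to 23 for stages and 45 to 54 for classes. Of 1384 member values under alternatives 1240 counted as the same, 35 lost the call, 36 gained it and 10 turned direction, none of which passed with either sign. Where a test was made, the same means direction and call were kept. Values from 1 library alone have no call and counted as the same within 1 SE of the main value, and 63 moved further. A turn of their direction was counted only where the main comparison had passed. Olig1 in mature over differentiating cells was -0.02 with library sizes alone and -0.28 at a clustering resolution of 0.15, and Tcf7l2 in mature over OPC-like cells was 0.02 at 0.6. Tcf7l2 in the lineage over microglia-like cells was 0.09 by DESeq2, 0.35 with library sizes alone, 0.06 with doublets kept, 0.02 with no gene left out of clustering, 0.18 after thinning, 0.10 at 0.6 and 0.06 at the finer class resolution. The cause of these turns was not tested. At 0.15 the differentiating class held 362 cells instead of 208, with Ctps among its leading genes. With 1 library left out no replicate remains, so those are values without a test.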
